A study of Gallus gallus with 2 samples.

Results

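The compartments of chicken chromosome 1 were read from the CHi-C pairs that the capture step had not selected. A region was a bin of 500 kb, and all 393 bins of chromosome 1 were taken, out of 2057 such bins over the assembled chromosomes (galGal5). Read pairs entered when both mates lay on chromosome 1 at least 2 Mb apart and both had a mapping quality of 30 or more. The 2 libraries came from wild-type White Leghorn embryos at stage HH20, 1 from the whole forelimb bud and 1 from the whole hindlimb bud. The groups shared breed, genotype, stage and protocol as described, and the limb was the only difference given. With 1 library per limb there was no replicate check, and a difference between the libraries could not be told apart from a difference between the limbs. Intervals of read pairs below are exact, at 95%, and cover counting error only.

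In Hi-C maps of animal nuclei, long stretches of a chromosome contact other stretches of their own kind more often than their distance along the DNA alone would give, which draws a checkerboard. The 2 kinds are known as A, gene-rich and active, and B, gene-poor and often at the nuclear edge. In birds the genome is split into a few large chromosomes and many small ones, and these microchromosomes are dense in genes and tend to lie together in the nuclear interior. The leading eigenvector of the correlated contact map sums up the checkerboard in a single value for each bin, and bins whose values have the same sign belong to the same kind.

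Chromosome 1 held 3488458 of the pairs with both qualities of 30 or more in forelimb and 3933346 in hindlimb, 16.7% and 16.9% of the pairs within 1 chromosome. Of these, 1420606 and 1577674 spanned 2 Mb or more. A used bin held a median of 7272 pairs in forelimb and 8111.5 in hindlimb, and a single bin pair a median of only 9 and 10, so single cells of the map were not read. Values were obtained for 389 bins in forelimb and 390 in hindlimb. The bins at 74.5 to 75 Mb and 196 to 196.5 Mb were too thinly covered in both libraries, and the bin at 0 to 0.5 Mb in forelimb. The bin at 9 to 9.5 Mb was left out of both, after the data had been seen, because of the displaced contacts described at the end.

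The forelimb and hindlimb libraries drew similar blocks along chromosome 1. The leading eigenvector was scaled to an SD of 1 without centring, and signed so that it rose with the share of contacts made with microchromosomes. It spanned -1.30 to 2.5 for forelimb and -1.26 to 2.45 for hindlimb. Over the 389 bins with a value in both, Pearson's r was 0.976 and Spearman's rho 0.973, as a description of neighbouring bins that share a library. The sign was the same in 367 bins (94.3%). All 22 bins of opposite sign lay near 0, the larger of their 2 values reaching at most 0.49 in size. Of them, 15 touched the border of a block of the pooled libraries. Those borders come from the same pairs, and the share of all bins at a border was not counted. Positive bins made up 59.6% of the chromosome in forelimb and 61.8% in hindlimb. The track of eigenvector values shows the same peaks and troughs in both limbs.

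**Figure D1:**
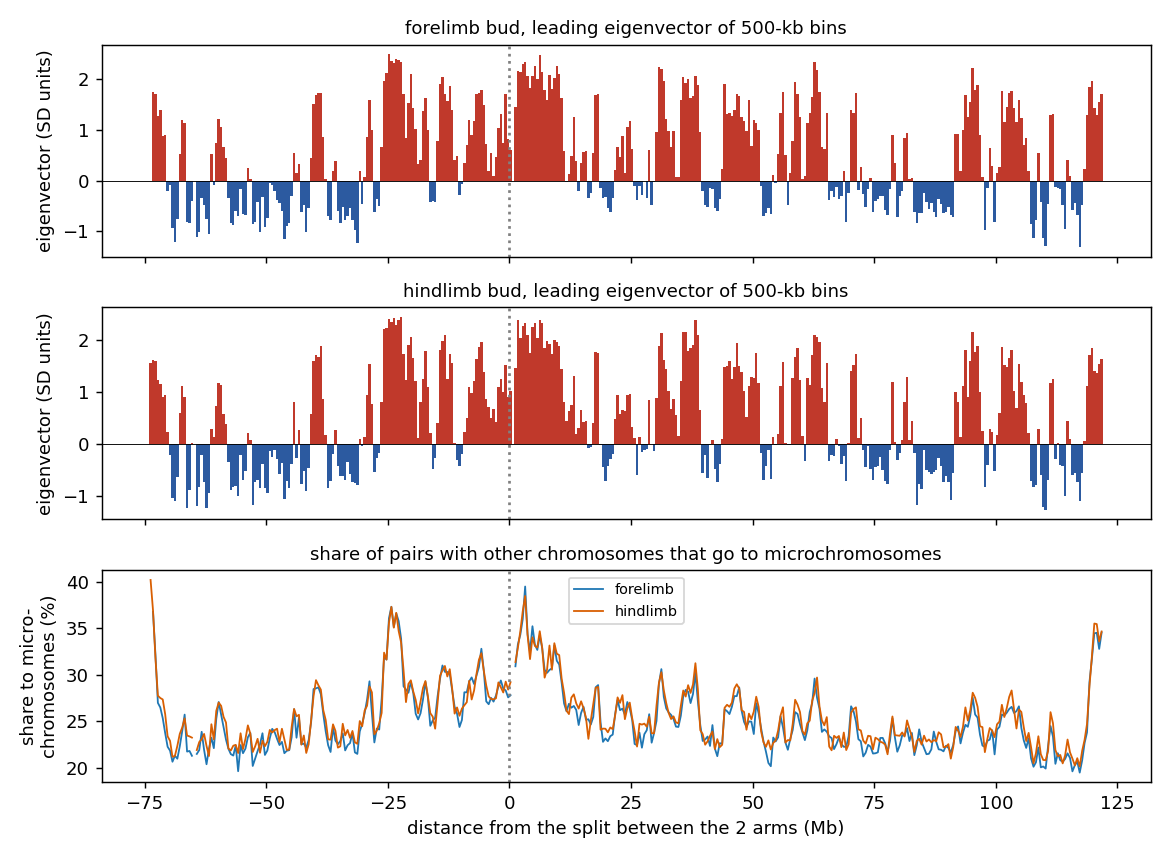
Leading eigenvector of chromosome 1 in 500-kb bins (SD units, red above 0, blue below) for forelimb and hindlimb, and the share of each bin's pairs with other chromosomes that go to microchromosomes (%), against the distance from the split between the 2 arms in Mb (dotted line). The peaks of both libraries coincide, positive values prevail on either side of the split and at both ends, and the microchromosome share peaks where the eigenvector does.

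The read names of each library gave lane numbers 1 to 4. Whether the 2 libraries lay in the same lanes was not checked. The 4 lanes of a library repeat the sequencing of 1 library and so measure counting noise alone. Eigenvectors of single lanes correlated at 0.905 to 0.920 within forelimb (median 0.914, 6 pairs of lanes) and at 0.923 to 0.935 within hindlimb (median 0.924). Lanes of different libraries correlated at 0.906 to 0.932 (median 0.916, 16 pairs). Forelimb lanes correlated with hindlimb lanes about as closely as with each other, whereas 14 of the 16 values between the libraries lay below the lowest within hindlimb. Hindlimb lanes held 366339 to 412743 pairs of 2 Mb or more, and forelimb lanes 325233 to 374196. Depth was not matched in these correlations.

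The blocks, runs of bins of a single sign, were short for the most part. Forelimb had 71 blocks and hindlimb 73, with a median length of 1.5 Mb in both, and 16 and 19 of them were a single bin. The 10 forelimb blocks of 5 Mb or more covered 91.5 Mb, and the 9 of hindlimb 89.5 Mb. Of the 70 borders in forelimb, 49 fell at the same bin edge in hindlimb and 61 (87.1%) lay within 1 bin of a hindlimb border. Of the 72 hindlimb borders, 84.7% lay within 1 bin of a forelimb one. The number of blocks changed with the settings, to 49 in forelimb and 45 in hindlimb with bins of 1 Mb. It was 131 and 117 with bins of 250 kb. Without balancing, or when runs of 1 bin were joined to their neighbours, it was 47 and 45.

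The longest positive block of the pooled libraries ran from 64.5 to 90 Mb, 25.5 Mb in all. Its mean was 1.28 in forelimb and 1.35 in hindlimb, and 48 and 50 of its 50 used bins were positive. The block at 47.5 to 57.5 Mb had the highest mean of the named blocks, 1.62 in forelimb and 1.73 in hindlimb, with all 20 bins positive in both. The next, at 104 to 113.5 Mb, had means of 1.43 and 1.45. These positive blocks lay around the middle of the chromosome, 2 of them close to each other and parted by a few short blocks.

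Among negative blocks the longest were 2 of 8.5 Mb, at 21 to 29.5 Mb and at 157 to 165.5 Mb. The first had a mean of -0.59 in forelimb and -0.60 in hindlimb, and the second -0.57 and -0.59. The next, at 146.5 to 152.5 Mb, had -0.36 and -0.41. All bins of the first 2 were negative in both libraries, and 11 of 12 forelimb and all 12 hindlimb bins of the last. The named negative blocks stayed closer to 0 than the named positive ones, on a scale that was not centred. Bins averaged 0.36 in forelimb and 0.39 in hindlimb before 74 Mb, and 0.56 and 0.59 after it. Distance from 0 is therefore not distance from the mean.

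Both ends of the chromosome were positive. The block at 0.5 to 4 Mb had a mean of 1.11 in forelimb and 1.10 in hindlimb, and the block at 192 to 196 Mb had 1.42 and 1.34. Every used bin of the first and the last 3 Mb was positive in both libraries. This did not extend far inward, since 50% of forelimb and 63.2% of hindlimb bins were positive over the first 10 Mb, and 52.6% and 57.9% over the last 10 Mb. The lowest forelimb value of the chromosome, -1.30, was at 191 Mb, just inside the last block, where hindlimb had -1.09.

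How strongly the 2 kinds of bins kept apart was measured with the eigenvector of the other library, so that the pairs counted had not ranked the bins. Observed read pairs were divided by the number that distance and coverage alone would give (observed over expected). In forelimb this value was 1.24 between bins of the top 20% of the eigenvector, 1.22 between bins of the lowest 20% and 0.769 between bins of unlike kind. Hindlimb gave 1.24, 1.21 and 0.758. Strength, the value of like pairs over that of unlike pairs, was 1.61 in forelimb (1.59 to 1.62, 226946 read pairs) and 1.62 in hindlimb (1.61 to 1.63, 252629 read pairs). The intervals overlap, and single lanes spread from 1.52 to 1.57 and from 1.56 to 1.58. The overlap depended on the setting, as the intervals were apart in 6 of 15 alternatives, with hindlimb higher in 5 of them (1.48 and 1.53 with bins of 1 Mb) and forelimb higher in 1 (1.48 and 1.46 with the leading eigenvector of each arm).

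Enrichment of like pairs changed with distance, and not in the same way for the 2 kinds. At 10 to 30 Mb, pairs of low bins were the more enriched, with an observed over expected of 1.31 in forelimb and 1.29 in hindlimb, against 1.15 and 1.16 for pairs of high bins. At 30 to 75 Mb the order was already turned around, with 1.39 and 1.40 for high bins and 1.08 and 1.06 for low bins. At 75 Mb or more high bins had 1.62 and 1.61 and low bins 1.02 and 1.03. Unlike pairs stayed between 0.711 and 0.787 at every distance in both libraries. Positive bins prevailed on either side of the split near 74 Mb described below, across which contact was most depleted at 10 to 30 Mb. Distances were not separated by arm, so the part of the arms in the change with distance was not tested. Over all distances, high bins had 1.20 and 1.26 and low bins 1.21 and 1.23 within the first arm. Within the second arm high bins had 1.31 and 1.30 and low bins 1.32 and 1.26. The plot of contact by distance and kind shows the 2 lines crossing in both libraries.

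**Figure D2:**
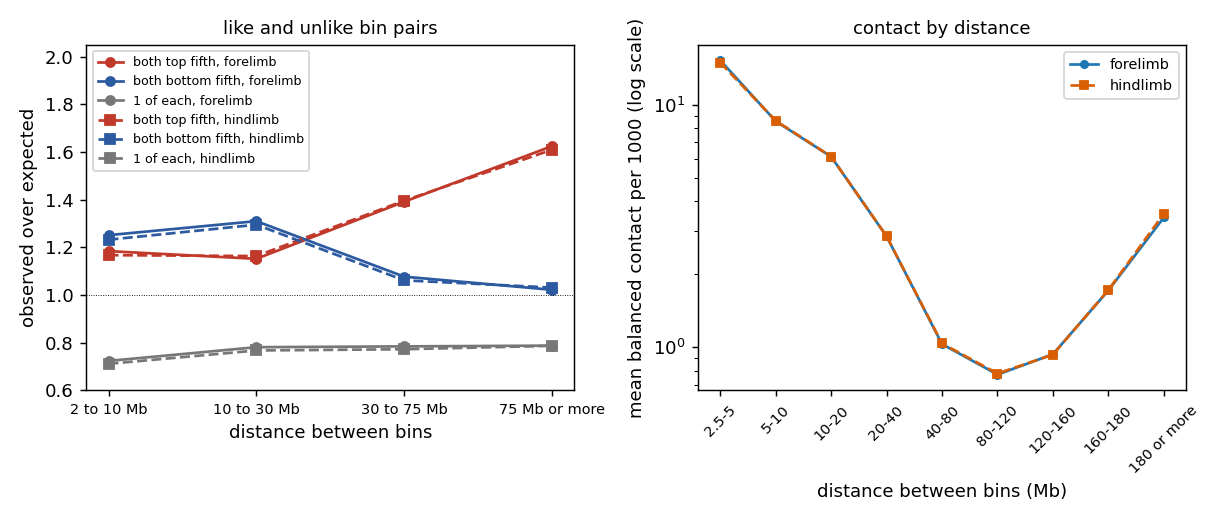
Left, observed over expected read pairs for bins both in the top 20%, both in the lowest 20% and 1 of each, by distance between the bins, with the eigenvector taken from the other library (solid line forelimb, dashed hindlimb). Right, mean balanced contact per bin pair per 1000 (log scale) by distance. Low bins lie above high bins up to 30 Mb and below them from there on, and contact rises again beyond 120 Mb.

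Chromosome 2, the next in size, gave a strength of 1.5 in forelimb (1.49 to 1.52) and 1.52 in hindlimb (1.5 to 1.53), with r = 0.964 between the libraries over its bins. Chromosome 1 was above it in both libraries by more than the counting intervals, and no spread between embryos could be set against this. Chromosome 2 held fewer pairs of 2 Mb or more, 965354 in forelimb and 1068874 in hindlimb, and depth was not matched. Single lanes of chromosome 1, with fewer pairs still, gave a lower strength than its full libraries, from 1.52 to 1.57 and from 1.56 to 1.58. On chromosome 3 the rule took the first eigenvector in forelimb and the second in hindlimb, which correlated at only 0.50, so chromosome 3 was not compared.

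Pairs of blocks were ranked by their observed over expected value in the pooled libraries. Of the 1079 block pairs over 10 Mb apart with at least 200 expected read pairs, the highest joined the first end (0.5 to 4 Mb) to the block at 47.5 to 57.5 Mb. It held 2504 forelimb pairs, 2.25 times the expected number (2.17 to 2.34), and 2992 hindlimb pairs, 2.35 times (2.27 to 2.44). The second highest joined the same block to the last end (192 to 196 Mb), at 2.18 in forelimb and 2.19 in hindlimb. The next joined the first end to the block at 59 to 63.5 Mb, at 1.99 and 1.89. All 3 pairs involved an end of the chromosome and joined positive blocks.

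The lowest pair was that of the negative block at 16 to 20 Mb with the last end, at 0.546 in forelimb (0.495 to 0.600) and 0.610 in hindlimb (0.559 to 0.664). The next lowest, 33 to 36.5 Mb with 153.5 to 155 Mb, rested on only 105 forelimb and 100 hindlimb read pairs. It had 0.648 (0.530 to 0.784) and 0.553 (0.450 to 0.673). The pair of 63.5 to 64.5 Mb with 91 to 92.5 Mb rested on only 79 and 76 read pairs. It had 0.651 (0.515 to 0.811) and 0.563 (0.444 to 0.705). Each of these low pairs joined a positive to a negative block, and each also spanned the split near 74 Mb described below. The second highest pair, 47.5 to 57.5 Mb with 192 to 196 Mb, spanned that split as well. The pair of 63.5 to 64.5 Mb with 91 to 92.5 Mb lay 10 to 30 Mb apart. At that distance all bin pairs across the split had 0.702 in forelimb and 0.693 in hindlimb. The part of the split in the low value of this pair was not tested. In the pooled libraries the median was 1.05 over 317 pairs of positive blocks, 1.06 over 217 pairs of negative blocks and 0.919 over 545 unlike pairs. The signs came from the same pooled pairs, so these medians describe the map.

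**Figure D3:**
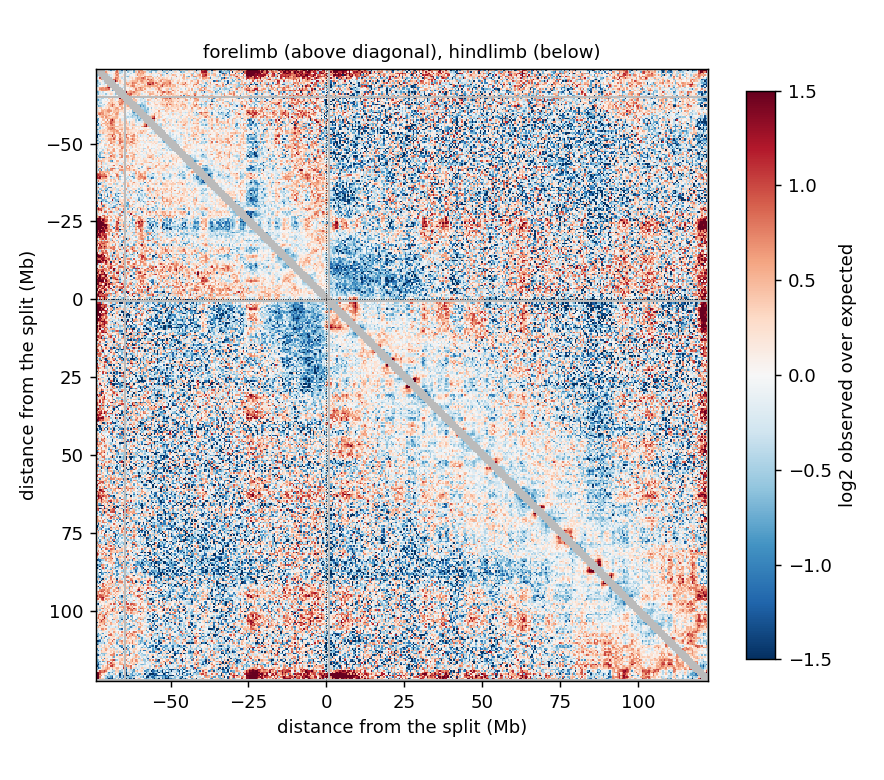
Observed over expected contact (log2, red above and blue below the mean at the same distance) between 500-kb bins of chromosome 1, forelimb above the diagonal and hindlimb below, with axes in Mb from the split between the arms (dotted lines). Grey marks bins and distances without a value. Blue rectangles touch the split at the centre, and red stripes join both ends of the chromosome to the positive blocks.

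Contacts were most depleted across a point near 74 Mb. The labels give no centromere, so each split from 19.5 to 176.5 Mb was scored by the observed over expected value of bin pairs that cross it within 50 Mb, and the split was taken from the other library. Both libraries gave 74 Mb, beside the thinly covered bin at 74.5 to 75 Mb. Across it the value was 0.770 in forelimb (0.765 to 0.776, 72524 read pairs) and 0.766 in hindlimb (0.761 to 0.771, 81681 read pairs). Within the first arm, the part before the split, it was 1.04 in both, and within the second arm 1.01 in both. The depletion was broad, with a further dip at 83.5 Mb of 0.877 in forelimb and 0.881 in hindlimb. Among splits over 25 Mb away the lowest lay at 154 Mb, with 0.901 and 0.907.

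The depletion across the split was deepest at 10 to 30 Mb, at 0.702 in forelimb and 0.693 in hindlimb. At 2 to 10 Mb it was 0.806 and 0.792, and at 30 to 75 Mb 0.913 and 0.911. Both sides of the split were positive. Of the bins in the 15 Mb before it, 93.3% were positive in forelimb and 90.0% in hindlimb, and of those in the 15 Mb after it 93.1% and 100%. Over the whole first arm the positive share was 56.2% and 57.1%, and over the second arm 61.7% and 64.6%.

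The checkerboard itself continued across the split, with a lower strength between the arms. Strength was 1.68 in forelimb and 1.69 in hindlimb within the second arm, 1.61 and 1.67 within the first arm, and 1.44 (1.41 to 1.47) and 1.42 (1.39 to 1.44) between the arms. Between arms, pairs of high bins had an observed over expected of 1.16 and 1.11 and pairs of low bins 1.02 and 1.03. The expected numbers take no account of the arms. The part of the depletion across the split in the lower strength was not tested.

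The next 2 eigenvectors carried arms and ends. The first accounted for 11.6% of the variance of the correlation matrix in forelimb and 12.6% in hindlimb, the second for 5.04% and 5.32%, and the third for 4.21% and 4.66%. Forelimb and hindlimb correlated at 0.913 on the second and 0.937 on the third, in absolute value. The second had a mean of 1.51 in forelimb and 1.45 in hindlimb over the first arm and 0.43 and 0.37 over the second. It was highest in the 15 Mb before the split, at 2.30 and 2.32, and lowest in the last 3 Mb, at -2.30 and -2.41. The third set the first 3 Mb, at -2.13 and -1.82, against the 15 Mb after the split, at 1.74 and 1.62. Their signs are arbitrary.

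Contact between the 2 ends of the chromosome was higher than contact at intermediate distances. Mean balanced contact, scaled so that a bin's contacts sum to 1 and given per 1000 for each bin pair, fell from 15.2 in forelimb and 14.9 in hindlimb at 2.5 to 5 Mb to 0.771 and 0.778 at 80 to 120 Mb. It then rose to 0.935 and 0.932 at 120 to 160 Mb, to 1.71 and 1.72 at 160 to 180 Mb and to 3.43 and 3.55 at 180 Mb or more. The last values, from 9850 and 11852 read pairs, were 4.45 and 4.56 times those at 80 to 120 Mb. Bins that far apart can only lie near opposite ends, so distance and end effect cannot be told apart there.

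The kinds of bins also differed at the ends. At 180 Mb or more, balanced contact per 1000 was 4.80 in forelimb and 4.99 in hindlimb between positive bins, 3.62 and 3.66 between negative bins and 2.45 in both between unlike bins, with signs from the other library. All 3 kinds exceeded their own values at 80 to 120 Mb, which ran from 0.686 to 0.916. Positive bins of the first and last 10 Mb met positive bins elsewhere at an observed over expected of 1.38 in forelimb (1.37 to 1.39) and 1.42 in hindlimb (1.41 to 1.43). With negative bins elsewhere they had 1.01 and 0.987. Between the first and the last 10 Mb the value was 1.14 (1.12 to 1.17) and 1.16 (1.13 to 1.18). These bin pairs themselves set much of the mean at their distance, and the effect of this on the value was not tested. With all bins outside both ends, positive and negative, the first 10 Mb had 1.20 in both libraries and the last 10 Mb 1.20 and 1.19. In this window the ends had higher values with the rest of the chromosome than with each other. With windows of 5 Mb the order was the other way, at 1.37 and 1.39 between the ends. The first 5 Mb then had 1.25 and 1.24 with the bins outside both ends, and the last 5 Mb 1.25 and 1.23. The order thus depended on the window, and the part of the pooled mean in it was not tested.

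Contacts with other chromosomes were not used to build the map, although the microchromosome share had picked the eigenvector among the first 3 and set its sign. Ranked by the other library's eigenvector, bins of the lowest 20% sent 21.7% of their pairs with other chromosomes to microchromosomes in forelimb (21.6 to 21.9%) and 22.4% in hindlimb (22.3 to 22.6%). Microchromosomes are taken here as chromosomes numbered from 11 up, and pairs with the capture region were left out. The share rose through each next group of bins, to 23.0%, 24.6%, 26.7% and 30.4% (30.3 to 30.6%) in forelimb and to 23.4%, 25.3%, 27.0% and 30.8% (30.7 to 30.9%) in hindlimb. Over 389 bins r was 0.835 and 0.850. Single bins spread around this, from 24.4 to 39.5% in the top group of forelimb and from 19.5 to 24.1% in the lowest.

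Partner chromosomes differed by size. Single shares were given for 17 microchromosomes, 11 to 15 and 17 to 28, and not for the others numbered from 11 up. The share sent to each of these 17 rose with the eigenvector. Its r was 0.214 to 0.807 for forelimb and 0.159 to 0.839 for hindlimb, lowest for chromosome 11 in both libraries. Chromosome 15 had 0.799 and 0.839, and chromosome 17 had 0.807 and 0.818. The shares sent to chromosomes 2, 3, 4, 5 and Z fell with it, for chromosome 2 at r = -0.79 and -0.78, and those sent to chromosomes 6 to 10 were mixed, from -0.20 for chromosome 7 in both libraries to 0.607 and 0.580 for chromosome 10. For chromosome 2 this meant 18.1% of the pairs of the lowest bins and 14.6% of those of the top bins in forelimb, and 17.8% and 14.4% in hindlimb. Shares add up to a whole, so these values are not independent of each other.

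The top and lowest bins also differed at short range, which the map did not use. The ratio of pairs 200 kb to 2 Mb apart to pairs 20 to 200 kb apart was 1.89 in the lowest 20% and 1.31 in the top 20% in forelimb, and 1.79 and 1.22 in hindlimb. A top bin held 4510 pairs of 20 to 200 kb in forelimb and 5330 in hindlimb, against 3001 and 3405 for a low bin. Pairs with the capture region on chromosome 7 numbered 1044 per low bin and 1197 per top bin in forelimb, and 1030 and 1222 in hindlimb. As a share of a bin's pairs with other chromosomes they went down, from 18% to 15% and from 16.2% to 13.3%. The number of DpnII fragments per bin had an r of only 0.05 and 0.06 with the eigenvector, and bins with high values had more pairs of 2 Mb or more (r = 0.430 and 0.522). The part of coverage in these results was not tested, as leaving out the balancing lets coverage into the values and does not remove it. Strength was then 1.66 and 1.67 and the value across the split, described above, 0.729 and 0.739. The r of each library's own eigenvector with the microchromosome share was 0.742 and 0.759.

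Forelimb and hindlimb differed little in most bins. The median difference was 0.138 in absolute value and the 95th percentile 0.455. Of 389 bins, 8 differed by more than 0.5, and hindlimb minus forelimb ran from -0.79 to 0.63. Bins were compared lane by lane, and a bin was counted when the 4 lanes of hindlimb and the 4 of forelimb did not overlap. This held for 18 of 388 bins (4.64%), 9 with hindlimb above forelimb (2.32%) and 9 with it below (2.32%). Lanes are not replicates, so these counts describe 2 libraries.

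The 3 bins with the largest difference in each direction, at least 5 Mb apart, were mostly near 0. The bin at 57.5 to 58 Mb, at the border of the block of 47.5 to 57.5 Mb, had -0.41 in forelimb and 0.22 in hindlimb, and the lanes ran from -0.51 to -0.01 and from -0.23 to 0.52. The bin at 70.5 to 71 Mb had 0.10 and 0.67, inside the longest positive block. In the other direction, 63 to 63.5 Mb had 0.49 and -0.30, 148 to 148.5 Mb had 0.05 and -0.47, and 130.5 to 131 Mb had 0.51 and 0.01. In all 5 of these bins the lanes of the 2 libraries overlapped.

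The bin at 124.5 to 125 Mb was the only named one with lanes apart. It had 1.13 in forelimb, with lanes from 0.62 to 1.31, and 1.75 in hindlimb, with lanes from 1.32 to 1.79, so the gap between the nearest lanes was small. It was strongly positive in both. Its microchromosome share was 27.0% in forelimb and 27.7% in hindlimb.

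**Figure D4:**
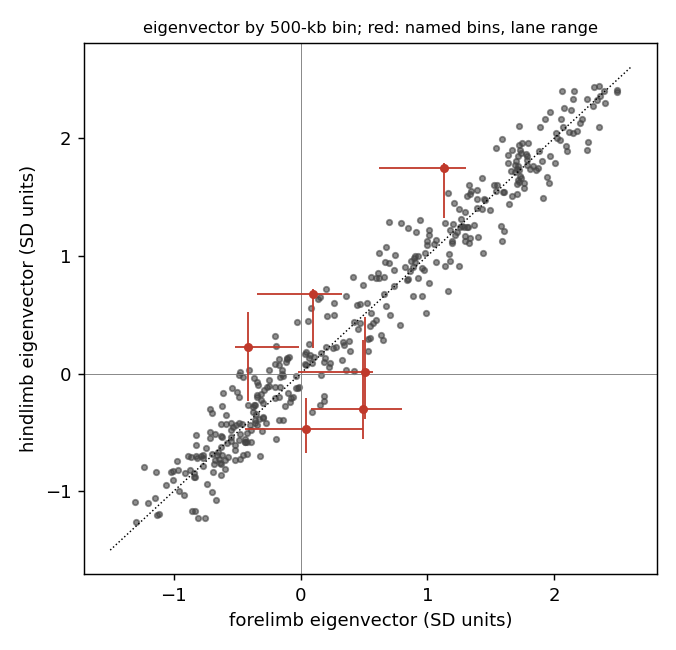
Leading eigenvector of each 500-kb bin in hindlimb against forelimb (SD units; dotted line, equal values). Red points are the 3 bins with the largest difference in each direction, at least 5 Mb apart, and their bars span the 4 lanes of each library. Points follow the line of equal values, and the lanes of 5 of the 6 named bins overlap between the libraries.

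One stretch of chromosome 1 made its contacts far from its own position. It was first seen as a bin with outlying contacts in the map. A stretch of 350 kb, from 9025001 to 9375000, had only 5 pairs with the 500 kb on either side of it in forelimb and 5 in hindlimb, where 145 other places of the same size had a median of 2669 and 3028. Its flanks met each other 1103 times in forelimb and 1342 times in hindlimb, against medians of 777 and 835. Of its pairs of 2 Mb or more, 52.3% in forelimb and 52.6% in hindlimb fell within 2 Mb of the bin at 72 to 72.5 Mb, 63 Mb away and close to the split. That bin pair held 1549 forelimb pairs, 111 times the expected number (105 to 116), and 1778 hindlimb pairs, 113 times (108 to 119).

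The highest 100 kb within that peak was 72.2 to 72.3 Mb in both libraries, with 499 and 573 pairs. Mapping quality was not lower there, as 90.9% and 91.3% of all valid pairs of that bin pair had both qualities of 30 or more, against 88.9% over chromosome 1 in each library. The plot of its read pairs shows contacts that climb toward the far position from both sides. An order of pieces in galGal5 that differs from the chromosome and an order in these birds that differs from galGal5 cannot be told apart in these data.

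**Figure D5:**
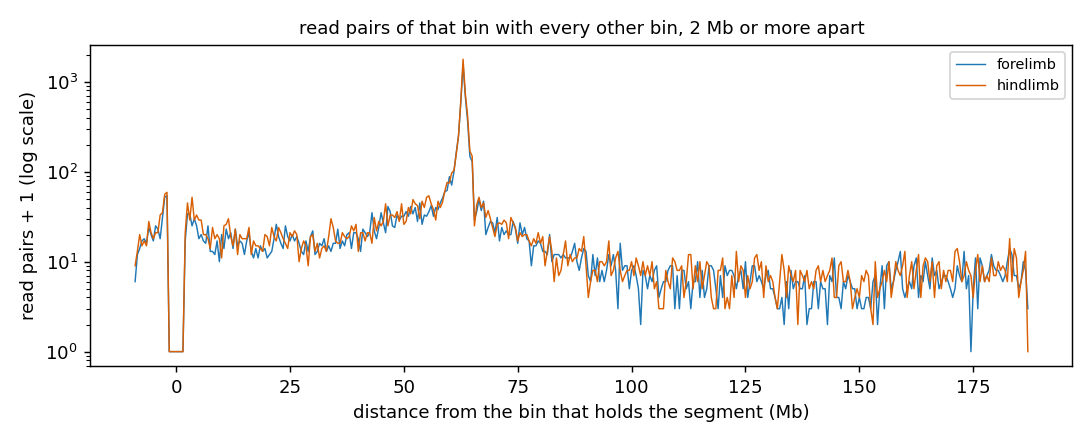
Read pairs plus 1 (log scale) of the 500-kb bin at 9 to 9.5 Mb with every other bin of chromosome 1 in forelimb and hindlimb, against the distance from that bin in Mb; pairs under 2 Mb were not counted. Both libraries peak 63 Mb away, at 1549 and 1778 pairs, and have far fewer close to the bin's own position.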

How the data were processed

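CHi-C was performed by the authors on 1 forelimb and 1 hindlimb library. The authors trimmed reads with cutadapt, mapped and filtered pairs with HiCUP and bowtie2 on galGal5, and placed each mate at the middle of its DpnII fragment. The deposited lists hold 1 line per valid pair, 35552269 in forelimb and 39556492 in hindlimb, with the mapping quality of each mate as a score. The deposited matrices cover other chromosomes and were not used.

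Pairs were counted in 500-kb bins. Bins were masked if fewer than 10 of their cells were filled or if their coverage fell below the median by over 5 median absolute deviations, and the others were balanced (numpy 2.4.6). Each value was divided by the mean at its distance, pooling far distances to 100 or more bin pairs. Rows were correlated, and of the first 3 eigenvectors the 1 closest to the microchromosome share was taken. Expected read pairs were the distance mean divided by the balancing weights. The steps were also run on simulated maps. There the eigenvector was chosen by the pattern built into the map, so the choice by microchromosome share was not checked. Clopper-Pearson and Poisson intervals of read pairs (scipy 1.17.1) treat read pairs as independent, at the depths given above.

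Regions and tests were chosen with earlier results of these data known. Named were the 3 longest blocks of each sign, the end blocks, the 3 bins with the largest difference in each direction at least 5 Mb apart, and the 3 highest and 3 lowest block pairs. No genes are named, as the only gene annotation used here does not belong to galGal5. Alternatives were other bin sizes (1 Mb and 250 kb), all valid pairs, a minimum of 5 Mb, no balancing, each lane left out, hindlimb thinned to forelimb, and other definitions of strength, blocks and ends.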

Additional observations from a re-analysis of the deposited data

Results flagged for a closer look

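The bin at 9 to 9.5 Mb, which holds the displaced stretch and was left out of the eigenvector, carried a signal far above the level set by distance in both libraries. Its pairs with the bin at 72 to 72.5 Mb were 111 times the expected number in forelimb and 113 times in hindlimb. It was listed because these pairs entered none of the main comparisons. They entered only the alternative that kept this bin. Each limb had 1 library, so neither a deviating sample nor a difference between limbs was tested.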

How the results depend on the processing

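No paired analysis was possible because each limb had 1 library and no replicate numbers. Of 148 values under other settings, 98 stayed within the interval of the main value and 50 moved. For correlations and shares of bins that interval takes bins as independent, and for numbers of blocks it means within 1.5 times. A change of direction was not scored. Where a cause is not given it was not tested. With 1-Mb bins, strength was 1.48 in forelimb and 1.53 in hindlimb, the value between the ends 1.23 in both, and hindlimb had 45 blocks. With 250-kb bins, r between the libraries was 0.963, the same sign was found in 91.1% of bins, strength was 1.67 and 1.68, blocks numbered 131 and 117, and the ends had 1.08 and 1.09. From 5 Mb on, strength was 1.68 and 1.69 and the ends had 1.18 in both. The r with the microchromosome share was varied for each library's own eigenvector, with main values of 0.833 and 0.844. Without balancing, r between the libraries was 0.970, strength 1.66 and 1.67, blocks 47 and 45, the value across the split 0.729 and 0.739, and r with the microchromosome share 0.742 and 0.759. Eigenvectors of each arm alone gave r = 0.963, the same sign in 88.9% of bins and a strength of only 1.17 and 1.19. There the rule took the second eigenvector of the second arm in both libraries. The leading eigenvector of each arm, an alternative chosen after seeing the data, gave r = 0.966 and a strength of 1.48 and 1.46. Splitting all bins by sign gave a strength of 1.16 and 1.17. Runs of 2 bins or more left 47 and 45 blocks. The outer 5 Mb had 1.37 and 1.39 with each other. Keeping the bin of the displaced stretch, chosen after seeing the data, gave 0.763 and 0.759 across the split and 1.11 and 1.13 between the ends. Leaving out each lane gave r from 0.966 to 0.972, the same sign in 90.0 to 92.8% of bins, a strength of 1.58 to 1.62 for forelimb and 1.6 to 1.63 for hindlimb, 69 to 77 and 67 to 79 blocks, 0.768 to 0.772 and 0.764 to 0.767 across the split, 1.13 to 1.15 and 1.14 to 1.16 between the ends, and r with the microchromosome share from 0.826 to 0.842 and from 0.842 to 0.857. Depth limited the map to blocks of bins, as a bin pair held about 10 read pairs.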
